A study of Mus musculus with 16 samples.

Results

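The genes described here are 10 components of bone morphogenetic protein (BMP) signalling and its Id targets, selected by symbol from the 24411 genes of the count table. They are the ligands Bmp4 and Bmp6, the receptors Bmpr1a and Bmpr2, the signal-transducing SMADs Smad1 and Smad5, the inhibitory SMAD Smad6 and the transcription regulators Id1, Id2 and Id3. RNA was sequenced from muscle stem cells (MuSCs) of mouse skeletal muscle, in 4 groups of 4 libraries. The first group was uninjured control MuSCs, labelled wild type. The second was uninjured MuSCs of TRF2 MuSC-cKO (cKO) mice, in which floxed Terf2, the gene of the telomere-binding protein TRF2, is deleted by tamoxifen through Pax7 CreERT2, a Cre driver of Pax7-expressing cells. The other groups were control and cKO MuSCs 3 days post injury (3 DPI), with 10 µl of notexin, a myotoxin of snake venom, injected into the tibialis anterior muscle. The labels give neither age nor sex, and do not say whether control mice carried the Cre or received tamoxifen. Cells were sorted as negative for CD45, CD31, CD11b and Sca1 and positive for α7-integrin with VCAM or CD34.

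BMP ligands are secreted dimers that bring type I receptors (such as Bmpr1a) and type II receptors (such as Bmpr2) together at the cell surface. The type II receptor phosphorylates the type I receptor, which phosphorylates Smad1, Smad5 and Smad9, and these enter the nucleus with Smad4 and switch on targets that include Id1, Id2, Id3 and the feedback inhibitor Smad6. Id proteins lack a DNA-binding region and hold E proteins away from MyoD-family factors, so that BMP signalling is known in satellite cells for favouring expansion and restraining terminal differentiation.

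In the GENCODE M21 annotation of GRCm38 the Id genes lie apart, Id1 at chr2:152736251-152737410 on the plus strand, Id2 at chr12:25093799-25097140 on the minus strand and Id3 at chr4:136143497-136145755 on the plus strand. Bmp4 is at chr14:46383520-46390669 on the minus strand and Bmp6 at chr13:38345107-38500302 on the plus strand. Smad5 is at chr13:56703010-56742377 on the plus strand and Smad6 at chr9:63953076-64022059 on the minus strand. Bmpr1a is at chr14:34410734-34503341 (minus), Bmpr2 at chr1:59763400-59879014 (plus) and Smad1 at chr8:79338395-79399518 (minus).

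RefSeq promoter sequence (GRCm38.p6) was matched by symbol for 9 of the 10 genes, all but Id1, which was not searched. The 250 bases before each start were searched on both strands for 4 motifs. These were the BMP-SMAD letters GGCGCC, the SMAD letters CAGAC, the telomere repeat TTAGGG, and a G-quadruplex (G4) pattern of 4 runs of at least 3 G with loops of 1 to 7 bases, since TRF2 is known to bind telomere repeats and G4 structures. The first 2 lines are the windows of Bmp4 and Smad5, shown because the uninjured control and cKO libraries of these genes did not overlap. The same held for 12.6% of all genes tested, and neither gene passed the edgeR thresholds given below. Neither printed window holds any of the 4 motifs, which says only that these letters are not in these windows. The other Smad5 windows do hold matches, given below. The third line is Smad6, the feedback inhibitor, with its G4 match in capitals. The Bmp4 window is chr14:46390670-46390919 (minus strand), that of Smad5 chr13:56702760-56703009 (plus, the first of its 3 listed starts) and that of Smad6 chr9:64022060-64022309 (minus), each written 5′ to 3′ on the gene's strand.
Bmp4: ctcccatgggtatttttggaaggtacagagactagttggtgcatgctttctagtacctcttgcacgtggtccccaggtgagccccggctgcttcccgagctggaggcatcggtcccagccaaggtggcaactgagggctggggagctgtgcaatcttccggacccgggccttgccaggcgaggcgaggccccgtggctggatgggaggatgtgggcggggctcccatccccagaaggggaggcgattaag
Smad5: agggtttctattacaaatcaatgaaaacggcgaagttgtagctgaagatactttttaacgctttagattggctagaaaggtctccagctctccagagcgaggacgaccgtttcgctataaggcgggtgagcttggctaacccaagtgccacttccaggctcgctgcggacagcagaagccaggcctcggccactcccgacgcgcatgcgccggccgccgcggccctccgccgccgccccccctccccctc
Smad6: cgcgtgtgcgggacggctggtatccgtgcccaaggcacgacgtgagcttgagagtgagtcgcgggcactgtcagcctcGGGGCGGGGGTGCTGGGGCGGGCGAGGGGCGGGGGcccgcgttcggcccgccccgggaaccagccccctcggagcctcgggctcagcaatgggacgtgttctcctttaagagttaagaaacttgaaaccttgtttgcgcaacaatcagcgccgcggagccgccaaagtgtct

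Of the 2 Id genes searched, Id3 holds the SMAD letters at 2 places and Id2 holds the BMP-SMAD letters once. The stretches with these letters in capitals follow, and the second Id3 stretch has them as the reverse complement. They lie at chr4:136143643-136143672 and chr4:136143742-136143771 (plus strand) and chr12:25096306-25096335 (minus strand), and their motifs begin 167, 68 and 231 bases before the RefSeq start. GENCODE M21 places the starts of both genes further upstream, so that these stretches lie inside its gene bodies, and both 250-base windows overlap annotated exons of Id3 and Id2.
Id3 upstream: tgtcctcggcgtCAGACcagcctaaggaag
Id3 downstream: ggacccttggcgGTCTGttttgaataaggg
Id2: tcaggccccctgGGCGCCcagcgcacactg

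GGCGCC was found in 9.59% of all 32851 promoter windows of this length, CAGAC in 42.2%, TTAGGG in 9.32% and the G4 pattern in 16.7%. GGCGCC was also present in Bmpr2, Bmpr1a and another Smad5 window, CAGAC in Bmp6 and the remaining Smad5 window, TTAGGG in Smad1, and G4 patterns in Bmpr2, Bmpr1a and that same Smad5 window. A match is a description of the letters and not a binding site.

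Library totals were 620406 to 1351095 counts, and the 10 genes rested on 7 to 380 counts in each uninjured library. A count was found for 19996 to 21879 genes in 15 libraries and for 15387 in the library labelled cKO 3 DPI replicate 3. That library had 0 counts of Bmp4, Bmp6 and Smad1, where a count of 0 allows up to 3.72 CPM, and 1 count of Id1. It enters the 3 DPI results below, which also give the values without it. Levels are CPM, counts scaled to a common total with TMM factors over the 16 libraries. The upper limit for a count of 0 covers counting error only. Terf2, the deleted gene, had 76.3 ± 12.5 CPM in uninjured control and 45.6 ± 13.2 in uninjured cKO MuSCs (SD, n = 4), with no overlap. Its log2 fold change of -0.62 ± 0.27 (SE) did not pass (edgeR adjusted p = 0.199), and as CPM of the abundance-rescaled counts its libraries overlapped, at 59.6 to 85.2 against 29.8 to 67.9. At 3 DPI it had 43.8 ± 6.11 CPM in control and 57.8 ± 28.4 in the libraries labelled cKO (SD, n = 4), which ranged from 21.9 to 89.7. Terf2 was thus not lower under the cKO label there, and its log2 fold change of 0.44 ± 0.42 (SE) did not pass (edgeR adjusted p = 0.755). The 3 DPI group is therefore called the libraries labelled cKO. These libraries also held myeloid marker RNA, given below, whose part in the Terf2 level was not tested. The paper itself reports reduced Terf2 RNA by qRT-PCR and reduced TRF2 protein in MuSCs of cKO mice after tamoxifen.

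All marker genes of the 7 cell type lists were detected in every group. The 6 MuSC markers (Pax7, Myf5, Vcam1, Itga7, Sdc4 and Calcr) summed to 2178 to 3553 CPM in uninjured control and 1414 to 1901 in uninjured cKO libraries. At 3 DPI they summed to 537 to 759 CPM in control libraries and 294 to 450 in those labelled cKO. The 6 macrophage and myeloid markers summed to 47.8 to 97.7 CPM in uninjured control and 81.7 to 163 in uninjured cKO libraries. At 3 DPI they summed to 4031 to 5114 CPM in control libraries and 1578 to 4702 in those labelled cKO. Lyz2, lysozyme of myeloid cells, alone had 2131 to 2763 CPM in control 3 DPI libraries, after a sort that gates out CD45+ and CD11b+ cells. Fibroadipogenic markers summed to 562 to 902 CPM in uninjured control and 1452 to 2144 in control 3 DPI libraries, and to 478 to 912 and 1147 to 2345 CPM in the cKO groups. Schwann markers summed to 229 to 299 CPM in uninjured control and 328 to 450 in uninjured cKO libraries, without overlap, and to 280 to 386 and 334 to 444 CPM at 3 DPI. Pericyte and smooth muscle sums overlapped between all groups, from 555 to 1724 CPM. Myofiber sums were 97.7 to 149 and 99.4 to 195 CPM in uninjured control and cKO libraries, and 141 to 204 and 188 to 384 CPM at 3 DPI. Endothelial sums overlapped between all groups, from 289 to 651 CPM. The part of these shifts in the results on injury was not tested, and in bulk RNA fewer cells of a type and less RNA per cell cannot be told apart.

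**Figure D1:**
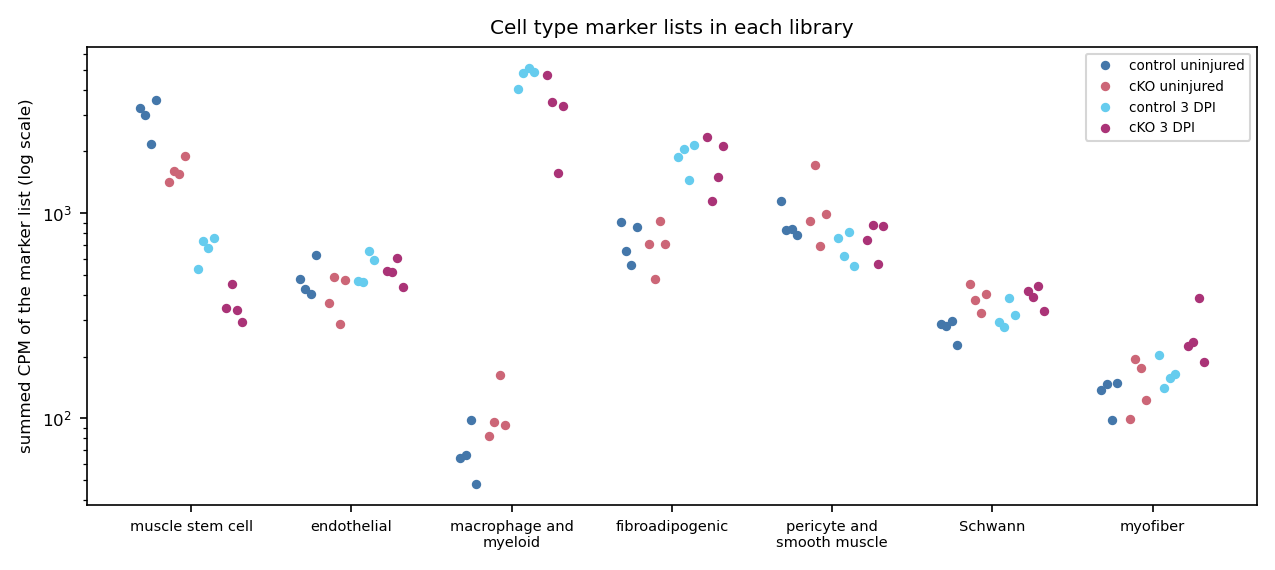
Summed CPM of each cell type marker list on a log axis, with 1 point per library and colours for the 4 groups. MuSC markers are lowest and macrophage and myeloid markers are highest in the 3 DPI libraries.

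Levels between genes were compared per length, as CPM of the deposited abundance-rescaled counts (rescaled CPM). In uninjured control MuSCs Id3 was the most abundant of the 10 genes, at 390 ± 80.5 rescaled CPM (SD, n = 4). Id1 followed at 232 ± 70.9, Bmp6 at 228 ± 65.6 and Bmp4 at 168 ± 11.5. The other genes were lower, with Smad5 at 58.1 ± 10.9, Bmpr2 at 53.9 ± 6.43, Id2 at 52.4 ± 19.5, Smad1 at 41.2 ± 9.66, Bmpr1a at 34.4 ± 9.10 and Smad6 at 28.3 ± 5.68. Only Bmp4 and Smad5 were neighbours in this order whose libraries did not overlap (153 to 180 against 48.7 to 73.8 rescaled CPM). At 3 DPI in control MuSCs Id2 stood first on the same scale, at 132 ± 27.4, beside Id3 at 122 ± 51.8 and Id1 at 76.9 ± 34.0. Bmp6 was then at 43.3 ± 16.4 and Bmp4 at 28.7 ± 9.72 rescaled CPM.

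**Figure D2:**
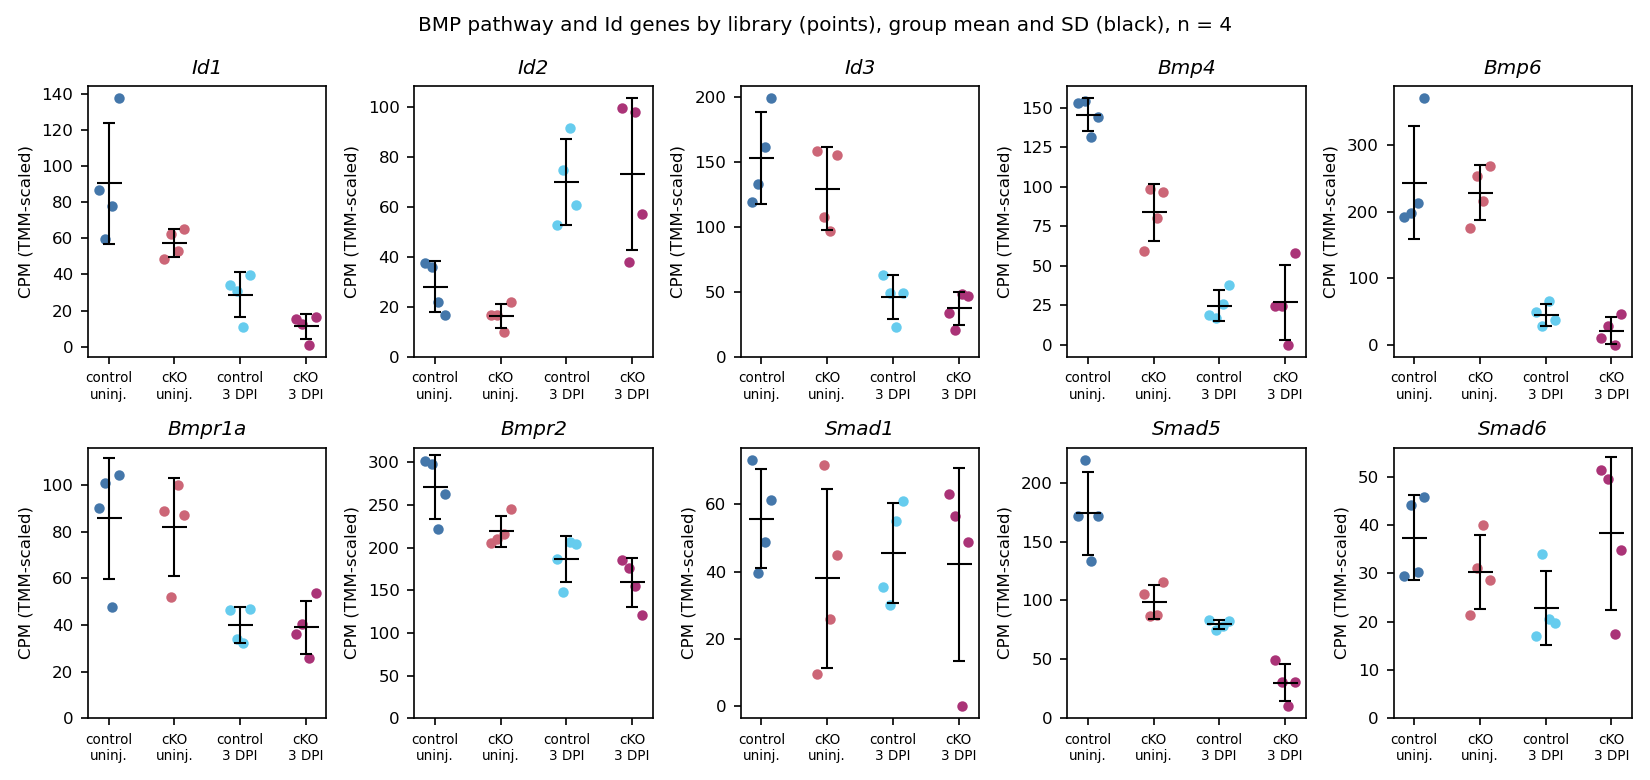
Level of each gene in CPM (linear axes) in every library, with the group mean and SD in black (n = 4). Bmp4, Bmp6, Id1 and Id3 are lower and Id2 is higher in control MuSCs at 3 DPI than in uninjured control MuSCs, with no overlap.

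The first comparison asks how these genes change when control MuSCs are taken from injured muscle. Genes with an edgeR adjusted p under 0.02 (quasi-likelihood test, Benjamini-Hochberg) and a change of more than 1.5-fold were called. Of the 10 genes, 6 fell (Id1, Id3, Bmp4, Bmp6, Bmpr1a and Smad5) and 1 rose (Id2), while Bmpr2, Smad1 and Smad6 did not pass. Over all 15356 genes tested, 9.46% were called lower and 10.8% higher. The median log2 fold change was -1.08 over the 10 genes and 0.07 over all genes. The libraries that share the name code JH140, whose meaning the labels do not give, are 1 uninjured and 2 injured. With a single uninjured library no call is read from them, and within them the log2 fold changes were -2.44 for Id1, 2.17 for Id2, -2.47 for Id3, -2.19 for Bmp4, -2.90 for Bmp6, -1.40 for Bmpr1a and -1.12 for Smad5.

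Among the ligands, Bmp4 had 153, 154, 131 and 144 CPM in the uninjured control libraries and 18.5, 16.5, 25.6 and 37.9 CPM in the control libraries at 3 DPI. Every injured library lay below every uninjured one. The log2 fold change of Bmp4 was -2.48 ± 0.25 (SE, edgeR adjusted p = 6.74e-11). Bmp6, a ligand known for iron control in liver as well as for bone formation, had 192, 198, 213 and 370.5 CPM uninjured and 49.4, 27.2, 64.9 and 36.2 CPM at 3 DPI. The groups of Bmp6 did not overlap, and its log2 fold change was -2.42 ± 0.25 (SE, edgeR adjusted p = 1.86e-10). The MuSC marker sums above were also lower without overlap in these same libraries.

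Among the receptors, Bmpr1a had 90.2, 101, 47.7 and 104 CPM uninjured and 46.3, 34.0, 32.5 and 46.9 CPM at 3 DPI. The lowest uninjured library lay just above the highest injured one. Bmpr1a fell by 1.07 ± 0.26 on the log2 scale (SE, edgeR adjusted p = 0.00143). Its adjusted p was 0.0227 from the abundance-rescaled values and 0.0223 in a joint fit of the 16 libraries, so that it was not called in either. Bmpr2, the type II receptor, had 301, 298, 222 and 262 CPM uninjured and 187, 148, 207 and 204 CPM at 3 DPI, with no overlap. Its log2 fold change was -0.50 ± 0.19 and did not pass (edgeR adjusted p = 0.0487). Without control uninjured replicate 3, its lowest uninjured library, Bmpr2 was called at -0.61 (edgeR adjusted p = 0.00974).

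Among the SMADs, Smad5 had 171.5, 220, 134 and 172 CPM uninjured and 83.4, 74.9, 77.7 and 82.3 CPM at 3 DPI. Its injured libraries spanned less than 10 CPM and lay below all uninjured ones. Smad5 fell by 1.09 ± 0.20 on the log2 scale (SE, edgeR adjusted p = 4.00e-05). Smad1, which carries the same signal, had 73.3, 39.6, 48.8 and 61.4 CPM uninjured and 35.5, 30.1, 55.1 and 60.9 CPM at 3 DPI. These groups overlapped, and its log2 fold change was -0.24 ± 0.28 (edgeR adjusted p = 0.625). Smad6 had 29.5, 44.1, 30.2 and 45.8 CPM uninjured and 16.99, 34.0, 20.7 and 19.7 CPM at 3 DPI, with overlap through the second injured library and a log2 fold change of -0.66 ± 0.34 (edgeR adjusted p = 0.175).

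The Id genes moved in both directions. Id1 had 86.7, 59.4, 77.9 and 137.5 CPM uninjured and 34.0, 31.1, 10.8 and 39.5 CPM at 3 DPI. No injured library reached the lowest uninjured one, and Id1 fell by 1.60 ± 0.30 on the log2 scale (SE, edgeR adjusted p = 5.09e-05). Id3 had 119.7, 133, 162 and 199.9 CPM uninjured and 63.3, 49.6, 22.6 and 49.4 CPM at 3 DPI, and fell by 1.71 ± 0.25 without overlap (SE, edgeR adjusted p = 3.00e-07). Id2 had 37.5, 36.0, 22.1 and 16.6 CPM uninjured and 52.5, 74.9, 91.5 and 60.9 CPM at 3 DPI. Each injured library lay above each uninjured one, and Id2 rose by 1.35 ± 0.29 (SE, edgeR adjusted p = 0.000321). With limma its adjusted p was 0.0261, and it was not called. The macrophage and myeloid and the fibroadipogenic marker sums were also higher without overlap in these same libraries, and their part in the rise of Id2 was not tested. Most of the fibroadipogenic sum at 3 DPI was Col1a1 (240 to 501 CPM uninjured, 1081 to 1764 at 3 DPI). Of its other markers Pdgfra, Dcn, Ly6a and Lum were higher as well, and Dpt was lower (188 to 323 and 43.8 to 92.7 CPM), all without overlap.

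**Figure D3:**
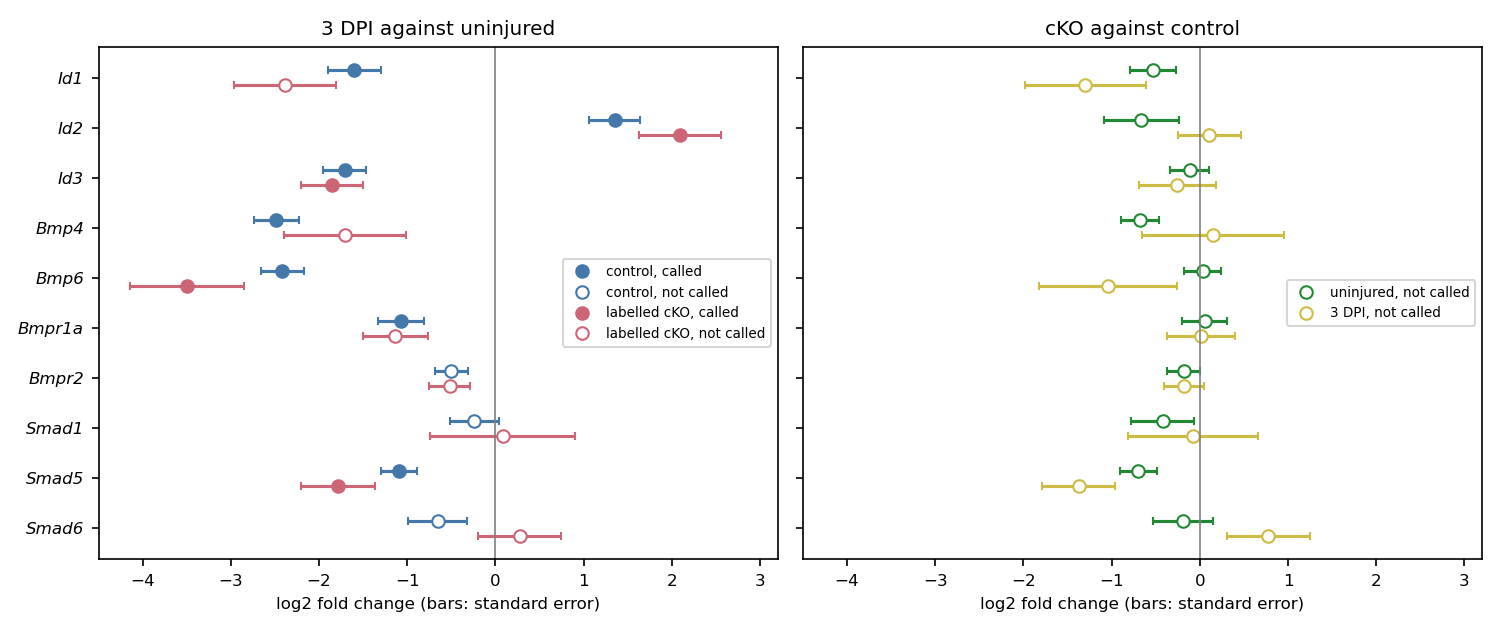
Log2 fold change of each gene with its standard error, for 3 DPI against uninjured (left, control in blue and libraries labelled cKO in red) and cKO against control (right, uninjured in green and 3 DPI in yellow). Filled points passed the test, with 7 in control and 4 in labelled cKO libraries on the left and 0 on the right.

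The same comparison was made between uninjured cKO libraries and the 3 DPI libraries labelled cKO, whose spread was larger. Id3, Bmp6 and Smad5 fell and Id2 rose, 4 of the 10 genes, against 1.61% of all 14578 genes tested called lower and 2.43% higher. The median log2 fold change was -1.42 over the 10 genes and 0.01 over all genes. From the abundance-rescaled values 1 gene was called (Id3), and the share of all genes called from those values is not given here. Without cKO 3 DPI replicate 3, the library with few genes detected, 6 genes were called, the same 4 with Id1 and Bmp4, while 3.3% of the 15547 genes then tested were called lower and 5.16% higher. Leaving out any other single library gave 0 to 3 called genes, and the lowest count came without cKO uninjured replicate 4. The libraries coded JH139 are 1 uninjured and 2 injured, too few to read a call from, and had log2 fold changes of 1.68 for Id2, -1.84 for Id3, -3.63 for Bmp6 and -2.64 for Smad5.

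Bmp6 had 175, 254, 216 and 268 CPM in uninjured cKO libraries and 9.35, 27.7, 0 and 46.6 CPM in the injured ones, with no overlap. Its log2 fold change was -3.50 ± 0.65 (SE, edgeR adjusted p = 0.00395), and -3.07 (adjusted p = 1.23e-07) without replicate 3. Bmp6 was not called from the abundance-rescaled values (adjusted p = 0.0856), without the filter on low counts (0.0278) or without cKO uninjured replicate 2, cKO uninjured replicate 4 or cKO 3 DPI replicate 1 (adjusted p = 0.0204 to 0.0239). Bmp4 had 59.2, 98.7, 80.2 and 96.7 CPM uninjured and 24.5, 24.2, 0 and 58.2 CPM at 3 DPI. The highest injured library lay just under the lowest uninjured one, and the log2 fold change of Bmp4 was -1.71 ± 0.69 (edgeR adjusted p = 0.213). Without replicate 3 it was -1.27 and passed (edgeR adjusted p = 0.0193).

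Id1 had 48.5, 62.3, 53.0 and 65.4 CPM in uninjured cKO libraries and 15.2, 12.7, 1.24 and 16.3 CPM in injured ones. The groups were far apart, yet Id1 just missed the threshold at -2.38 ± 0.58 (SE, edgeR adjusted p = 0.0234). It was called at -1.99 without replicate 3 (adjusted p = 0.00085), by limma (adjusted p = 0.00119) and by DESeq2 (adjusted p = 0.0004). Id3 had 159, 108, 97.3 and 155 CPM uninjured and 33.9, 20.8, 48.3 and 46.6 CPM at 3 DPI, and fell by 1.86 ± 0.35 on the log2 scale (SE, edgeR adjusted p = 0.00465). Its adjusted p was 0.0219 to 0.0277 without cKO uninjured replicate 1, cKO uninjured replicate 4 or cKO 3 DPI replicate 1, and it was not called there. Id2 had 16.6, 16.6, 10.0 and 21.8 CPM uninjured and 99.3, 38.1, 97.9 and 57.1 CPM at 3 DPI, above every uninjured library. It rose by 2.10 ± 0.47 (SE, edgeR adjusted p = 0.0140). The call of Id2 was lost with limma (adjusted p = 0.0244), the abundance-rescaled values (0.0313) and a block on replicate number (0.0794). The call was also lost without any of the 4 uninjured libraries, cKO 3 DPI replicate 1 or cKO 3 DPI replicate 4 (adjusted p = 0.0242 to 0.0672). Without replicate 3 the log2 fold changes were -1.98 for Id3 and 1.94 for Id2.

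Smad5 had 105, 86.2, 87.3 and 116 CPM uninjured and 49.1, 29.98, 9.92 and 30.3 CPM at 3 DPI, with no overlap. It fell by 1.79 ± 0.42 on the log2 scale (SE), at an adjusted p of 0.01999 by edgeR that lay at the threshold. Without replicate 3 it was -1.47 (adjusted p = 0.00177). The call of Smad5 was lost with the abundance-rescaled values (adjusted p = 0.122), median-of-ratios factors (0.0205), library size alone (0.0212) and a block on replicate number (0.0404). The call was also lost without any of the 4 uninjured libraries, cKO 3 DPI replicate 2 or cKO 3 DPI replicate 4 (adjusted p = 0.0556 to 0.0875). Smad1 had 9.47, 71.7, 25.8 and 44.9 CPM uninjured and 63.1, 56.5, 0 and 48.9 CPM at 3 DPI, which overlapped widely (log2 fold change 0.08 ± 0.82). Bmpr1a (88.8, 51.9, 100 and 87.2 CPM against 36.2, 40.4, 26.0 and 53.6) was at -1.13 ± 0.37 (edgeR adjusted p = 0.102). Bmpr2 (205, 210, 216 and 245 CPM against 186, 176, 155 and 121) was at -0.52 ± 0.23 (edgeR adjusted p = 0.281). Smad6 was 21.3 to 40.1 CPM uninjured and 17.4 to 51.4 CPM at 3 DPI, with a log2 fold change of 0.27 ± 0.47 (edgeR adjusted p = 0.861). Without replicate 3 the values were 0.51 for Smad1, -0.95 for Bmpr1a, -0.48 for Bmpr2 and 0.54 for Smad6, and none of these passed.

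The second question is what TRF2 loss changes in uninjured MuSCs. None of the 10 genes was called by edgeR (0 lower and 0 higher), against 2.63% of the 14048 genes tested called lower and 0.584% higher. The unadjusted p of 3 genes (Id1, Bmp4 and Smad5) was under 0.05, as for 19.5% of all genes tested. DESeq2 called 1 of the 10 genes (Smad5) and 4.43% of all genes, and limma called 0 of the 10 and 2.13% of all genes. Of the 10 fold changes 8 were below 0, with a median log2 fold change of -0.30, beside 0.06 over all genes. The libraries of 2 of the 10 genes, Bmp4 and Smad5, did not overlap between genotypes, and 12.6% of all genes tested did not. The 4 control libraries carry the codes JH135 and JH140 and the 4 cKO libraries JH134 and JH139, so the codes and the genotype cannot be told apart.

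Bmp4 was 131 to 154 CPM in the uninjured control libraries and 59.2 to 98.7 CPM in the cKO libraries. Its log2 fold change was -0.68 ± 0.22 (SE) and did not pass (edgeR adjusted p = 0.0590). Smad5 was 134 to 220 CPM in control and 86.2 to 116 CPM in cKO libraries, with a log2 fold change of -0.70 ± 0.21 (SE, edgeR adjusted p = 0.0424). DESeq2 called Smad5 at an adjusted p of 0.0140, and edgeR called it at -0.82 without control uninjured replicate 3 (adjusted p = 0.0146). In these cKO libraries MuSC marker sums were lower and Schwann marker sums higher than in control, both without overlap. The fibroadipogenic sums overlapped, but single markers did not. Pdgfra (19.7 to 50.0 CPM in control, 58.2 to 87.6 in cKO) and Dcn (26.7 to 70.6, 98.1 to 119.5) were higher and Dpt (188 to 323, 58.2 to 124) lower in cKO libraries. The part of these markers in the values of Bmp4 and Smad5 was not tested.

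Id1 was 59.4 to 137.5 CPM in control and 48.5 to 65.4 CPM in cKO libraries, with 2 cKO libraries above the lowest control (log2 fold change -0.53 ± 0.26, edgeR adjusted p = 0.253). Id2 was 16.6 to 37.5 CPM in control and 10.0 to 21.8 CPM in cKO libraries (-0.66 ± 0.43, edgeR adjusted p = 0.399). Id3 was 119.7 to 199.9 CPM in control and 97.3 to 159 CPM in cKO libraries (-0.12 ± 0.22, edgeR adjusted p = 0.808), and its sign turned with library size alone as the scaling. Bmp6 had a log2 fold change of 0.03 ± 0.21 and Bmpr1a of 0.06 ± 0.25, and the sign of both turned with the filter or with single libraries. Bmpr2 was at -0.18 ± 0.19, Smad1 at -0.42 ± 0.36 and Smad6 at -0.19 ± 0.34, all with overlapping libraries. The signs of Bmpr2 and Smad6 also turned with library size alone.

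At 3 DPI none of the 10 genes passed the edgeR test between control libraries and those labelled cKO, and 0% of the 14559 genes tested were called in either direction. Of all genes 1362 had an unadjusted p under 0.05, DESeq2 called 22 and limma 28. Among the 10 genes, 1 (Smad5) had an unadjusted p under 0.05, and DESeq2 and limma called 0. Smad5 was 74.9 to 83.4 CPM in control libraries and 9.92 to 49.1 CPM in those labelled cKO. It was the single gene of the 10 without overlap, where 7.84% of all genes tested did not overlap. The MuSC marker sums given above were also lower without overlap in the libraries labelled cKO, and their part in the value of Smad5 was not tested. The log2 fold change of Smad5 was -1.37 ± 0.42 (SE, edgeR adjusted p = 0.452), and -1.10 (adjusted p = 0.139) without cKO 3 DPI replicate 3. Within the libraries coded JH133, 2 of each label, it was -0.99 (adjusted p = 0.845).

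Id1 was 10.8 to 39.5 CPM in control 3 DPI libraries and 1.24 to 16.3 CPM in those labelled cKO, with a log2 fold change of -1.30 ± 0.69, or -0.94 without replicate 3. Smad6 was 16.99 to 34.0 CPM in control and 17.4 to 51.4 CPM in labelled cKO libraries (0.78 ± 0.47), and Bmp6 27.2 to 64.9 and 0 to 46.6 CPM (-1.04 ± 0.78). Without replicate 3 Smad6 was at 0.99 and Bmp6 at -0.64. Bmp4 had a log2 fold change of 0.15 ± 0.81 with all libraries and 0.53 without replicate 3. The other 5 genes had values between -0.25 (Id3) and 0.11 (Id2), and between -0.43 (Id3) and 0.32 (Smad1) without replicate 3.

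Whether injury acted differently in the 2 genotypes, as labelled, was tested as an interaction over all 16 libraries. As given above, Terf2 went against the label in the 3 DPI libraries labelled cKO. None of the 10 genes passed (0 by edgeR, DESeq2 and limma, and 0 with an unadjusted p under 0.05). Of 16822 genes tested, edgeR called 0.0178% lower and 0% higher, and 966 had an unadjusted p under 0.05. Over all genes DESeq2 called 24 and limma 123. The widest differences were 1.04 ± 0.57 for Smad6 (edgeR adjusted p = 0.890), -0.97 ± 0.71 for Bmp6 and 0.90 ± 0.71 for Bmp4. The values of Id1 (-0.67 ± 0.63), Id2 (0.84 ± 0.54) and Id3 (-0.05 ± 0.44) had wide errors as well. Without cKO 3 DPI replicate 3 they were 1.17 for Smad6, -0.69 for Bmp6, 1.18 for Bmp4, -0.42 for Id1, 0.56 for Id2 and -0.31 for Id3, and none of the 10 genes passed. So the larger number of genes called for injury in control MuSCs is not a tested difference between the genotypes as labelled. The injury comparisons in control and cKO MuSCs had separate libraries. Each shares libraries with the genotype comparisons and with the interaction.

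The wider pathway was described by 52 other genes in 7 roles. In control MuSCs 46 of them were tested for injury, with 9 called lower and 2 higher, beside 9.46% and 10.8% of all genes, and a median log2 fold change of -0.11. In a joint fit of the 16 libraries 5 of these 11 were still called (Rgma, Rgmb, Acvrl1, Twsg1 and Tcf4), and Acvr2b, Smad4, Nbl1, Hey1, Atoh8 and Runx2 were not (adjusted p = 0.0408 to 0.120). None of the 10 other ligands tested passed. Of the 8 receptors and co-receptors 3 fell and 1 rose. Rgma and Rgmb, the membrane-anchored repulsive guidance molecules that act as BMP co-receptors, fell by 2.39 ± 0.22 and 2.34 ± 0.23 on the log2 scale (edgeR adjusted p = 3.81e-12 and 5.68e-11). Rgma was 231 to 396 CPM uninjured and 40.1 to 78.2 CPM at 3 DPI, and Rgmb 250 to 414 and 31.1 to 78.2 CPM. Acvr2b, a type II receptor shared with activins and myostatin, fell by 1.56 ± 0.44 from a low level (23.2 to 33.1 CPM uninjured). Acvrl1, a type I receptor best known in endothelium, rose by 1.25 ± 0.27, from 22.3 to 50.7 CPM uninjured to 68.1 to 98.3 CPM at 3 DPI.

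Smad4, the common partner of the SMADs, fell by 0.70 ± 0.22 (edgeR adjusted p = 0.0125). Smad4 was also not called by limma (adjusted p = 0.0240), from the abundance-rescaled values (0.0274), with library size alone (0.0502) or with a block on replicate number (0.0207). Among 11 secreted antagonists and modulators tested, Twsg1 and Nbl1 fell by 1.21 ± 0.23 and 1.05 ± 0.25. None of the 7 intracellular and membrane inhibitors passed. Among 5 other targets tested, Hey1 and Atoh8 fell by 1.67 ± 0.33 and 1.10 ± 0.26, and Runx2, a regulator of bone formation, rose by 0.82 ± 0.26. Runx2 was also not called by limma (adjusted p = 0.0643), DESeq2 (0.0264) or from the abundance-rescaled values (0.226). Nor was Runx2 called with median-of-ratios factors (adjusted p = 0.0236), without the filter (0.0244) or with a block on replicate number (0.0262). Acvr2b was not called with library size alone (adjusted p = 0.0211). Single libraries left out ended the calls of Acvr2b, Smad4 and Runx2 (adjusted p = 0.0208 to 0.0822). Of the 3 E proteins, the partners that Id proteins hold, Tcf4 fell by 1.39 ± 0.19 (edgeR adjusted p = 1.42e-07), from 385 to 452 CPM to 127 to 191 CPM.

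**Figure D4:**
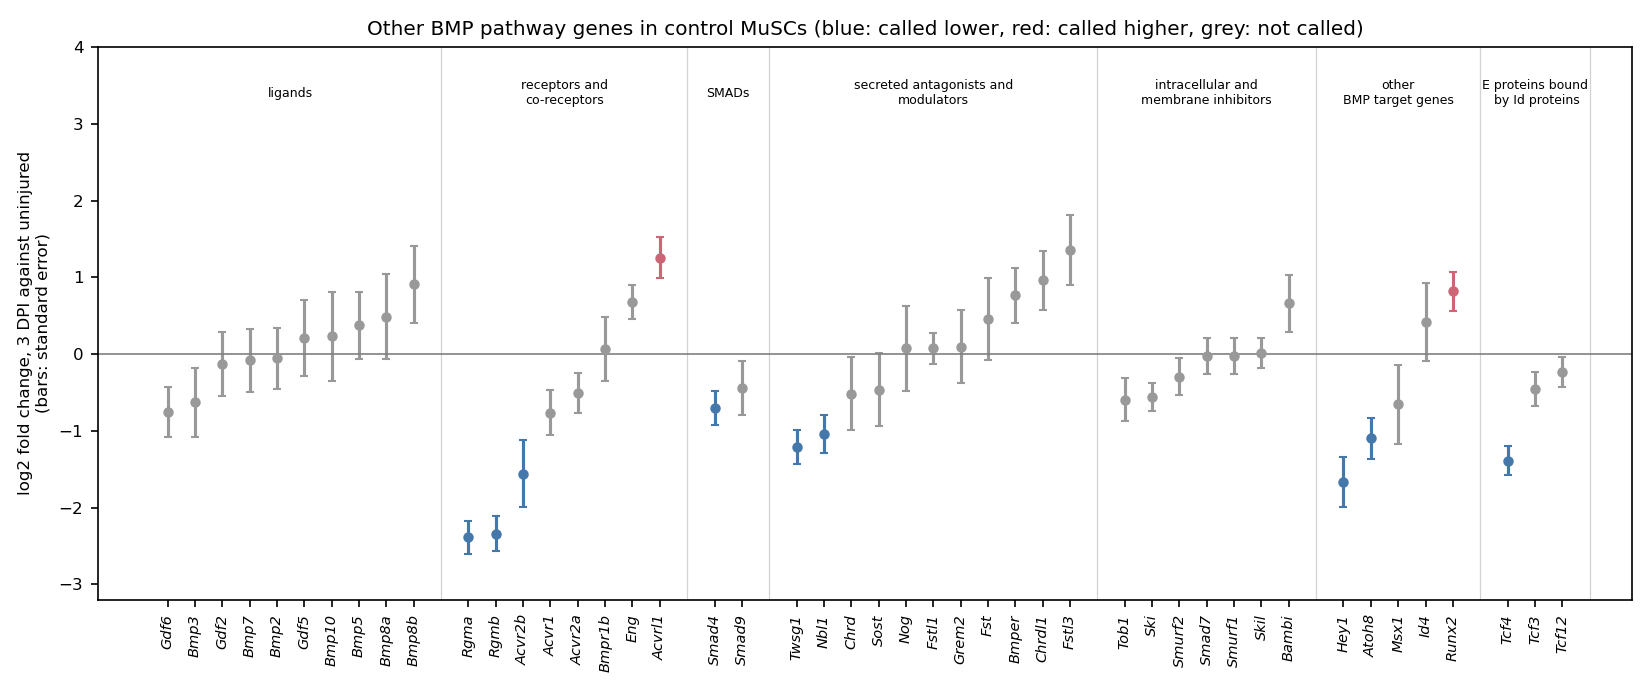
Log2 fold change with standard error of the 46 tested genes of the wider pathway in control MuSCs at 3 DPI against uninjured, grouped by role. Rgma and Rgmb have the lowest values and Acvrl1 and Runx2 are the 2 genes called higher.

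In the cKO comparison of injury 48 of the wider genes were tested and 2 were called, Rgma (-2.28 ± 0.36) and Rgmb (-2.35 ± 0.29), both lower, beside 1.61% of all genes called lower. Without cKO 3 DPI replicate 3 the number was 5, while 3.3% of the 15547 genes then tested were called lower and 5.16% higher. In uninjured MuSCs 2 of 46 tested genes were called lower between genotypes and 0 higher, near the 2.63% and 0.584% of all genes. Fstl1, a secreted follistatin-like glycoprotein that binds BMP4, had 465, 419, 247 and 401 CPM in control and 128, 144, 186 and 185 CPM in cKO libraries. It fell by 1.12 ± 0.20 without overlap (SE, edgeR adjusted p = 0.00033). Tcf4 fell by 0.73 ± 0.19 (edgeR adjusted p = 0.0116), with 385 to 452 CPM in control and 210 to 271 CPM in cKO libraries. Neither was called by limma, from the abundance-rescaled values or in a joint fit of the 16 libraries. Tcf4 was also not called with library size alone as the scaling (edgeR adjusted p = 0.0431). When single libraries were left out the number called was 1 or 2. The call of Tcf4 was lost in 6 of the 8 cases (adjusted p = 0.0302 to 0.0504). The uninjured cKO libraries also had lower MuSC and higher Schwann marker sums without overlap, as given above. Pdgfra and Dcn were higher and Dpt lower in them. The part of these markers in the values of Fstl1 and Tcf4 was not tested. At 3 DPI and in the interaction 0 wider genes were called by edgeR, DESeq2 or limma, with 2 and 4 at an unadjusted p under 0.05. Fstl1 at 3 DPI was 268 to 487 CPM in control libraries and 223 to 558.5 CPM in those labelled cKO, with wide overlap.

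The most abundant gene of each role, by mean rescaled CPM over the groups, placed the pathway's levels beside the 10 genes. In uninjured control MuSCs these were Rgmb at 278 ± 55.1 rescaled CPM, Fstl1 at 236 ± 50.8, Ski (a nuclear repressor of SMADs) at 163 ± 21.1, Tcf4 at 129 ± 3.92, Hey1 at 91.6 ± 18.6, Smad4 at 82.1 ± 12.8 and Gdf6 at 27.2 ± 5.43 (SD, n = 4). Bmp4 and Bmp6 thus stood above the highest other ligand on this scale, without overlap of libraries.

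Across the 16 libraries, the genes whose levels followed each Id gene most closely were ranked by the root mean square difference of log2 CPM centred on each gene's mean, among 12214 genes. Nearest to Id1 were Serinc5 (0.45), Mybpc1 (0.45) and Hs6st2 (0.45), where Id1 itself varied by 1.30 around its mean. This ranking rested on cKO 3 DPI replicate 3, with 1 count of Id1. Over the other 15 libraries none of these was among the 3 nearest to Id1, which were Fhl1 (0.30), Ccdc157 (0.35) and Id3 (0.35). Nearest to Id2 were Mgp (0.35), Tgm2 (0.35) and Pdia3 (0.37), all highest at 3 DPI like Id2, which varied by 0.95. Without that library Tgm2 and Pdia3 stayed among the 3 nearest and Coro1c took the place of Mgp. Nearest to Id3 were Vldlr (0.28), Ltbp1 (0.35) and Slc2a12 (0.35), where Id3 varied by 0.98. Without that library Vldlr (0.26) and Ltbp1 stayed nearest to Id3, followed by Id1. Vldlr, a lipoprotein receptor, had 238 ± 34.4 CPM in uninjured control, 190 ± 44.2 in uninjured cKO, 75.7 ± 15.9 in control 3 DPI and 56.1 ± 15.4 in labelled cKO 3 DPI libraries. Id3 had 154 ± 35.4, 130 ± 31.7, 46.2 ± 17.03 and 37.4 ± 12.8 CPM in the same groups (SD, n = 4).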

How the data were processed

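Sorted MuSC RNA from 16 mouse libraries, 4 per group, was depleted of ribosomal RNA and sequenced with CORALL libraries. The submitters' processing notes name Trim Galore 0.6.7, STAR 2.6.1d and Salmon 1.5.2, with GRCm38 as the build. The authors deposited 2 tables, one of estimated counts per gene without normalization and one of estimated counts rescaled by the authors from abundances, which was used for levels per length and as an alternative. The library kit keeps strand and adds unique molecular identifiers. Whether the counting used the strand, or collapsed reads by identifier, is not given in the sources used here. An antisense gene, Gm17110, overlaps Bmpr1a.

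Estimated counts were rounded. In R 4.3.3, each comparison took its 8 libraries through filterByExpr, TMM scaling and the robust quasi-likelihood test of edgeR 4.0.16 with Benjamini-Hochberg adjustment over all genes tested. The interaction used all 16. The study's own tool, limma (3.58.1), and DESeq2 1.42.0 were alternatives, with other scalings, no filter, the second table, a replicate block and each library left out. Calls needed an adjusted p under 0.02, as the study used, and a fold over 1.5. Log2 CPM had a prior count of 2. The ranking of genes near each Id gene was repeated without cKO 3 DPI replicate 3, a choice made after seeing the data.

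Groups came from the sample labels. The study's methods state biological replicates for its experiments. Each library name joins a JH code with letters such as LU or RB, and this combination is unique to the library. The labels explain neither part. No label states which animal a library came from, so p-values measure the spread between these samples, which may be technical. No libraries of a group agreed within sampling noise (chi-square over degrees of freedom of at least 2.97). The 10 genes, the other pathway genes and the marker lists were chosen with earlier results of these data known. Genes named are the 10, Terf2, wider pathway genes where called, the highest of each role and the 3 nearest to each Id gene among genes averaging 4 or more on the log2 CPM scale.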

Additional observations from a re-analysis of the deposited data

Results flagged for a closer look

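Among 92 gene and group combinations, 3 had 1 library that stood far from the other 3, where chance gives about 1 in 20. Bmp6 in control uninjured replicate 4 was 370.5 CPM beside 192 to 213 CPM in the other libraries. Rgmb in the library labelled cKO 3 DPI replicate 3, the library with few genes detected, was 48.35 CPM beside 32.6 to 33.9 CPM. Atoh8 in the library labelled cKO 3 DPI replicate 2 was 55.36 CPM beside 17.4 to 23.4 CPM.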

How the results depend on the processing

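Of 5 counts of called genes above 0, each under every setting, 64 values lay within 1.5 times the count reported and 25 did not. For the other 5 counts, which were 0, 98 values were 0 and 3 were not. In uninjured MuSCs the number of the 10 genes called between genotypes, 0, was 1 with DESeq2 and with an adjusted p under 0.05 without a minimum fold, and 0 to 1 when single libraries were left out. The number of wider pathway genes, 2, was 0 with limma, the abundance-rescaled table or all 16 libraries in 1 fit, 4 at an adjusted p under 0.05, 3 with DESeq2, library size alone, no filter or the replicate block, and 1 to 2 without single libraries. For injury in control MuSCs the wider count of 11 was 5 with all 16 libraries in 1 fit and 14 at an adjusted p under 0.05, and ranged from 9 to 12 without single libraries. For injury in the libraries labelled cKO the count of 4 was 2 with the replicate block, 1 with the abundance-rescaled table, 6 with limma, 0 within JH139, and 0 to 6 without single libraries. The wider count of 2 was 3 with limma or library size alone, 4 with DESeq2 or an adjusted p under 0.05, 5 with all 16 libraries, 0 within JH139 and 2 to 5 without single libraries. Over all genes, for injury in the labelled cKO libraries, limma called 1020 and DESeq2 994 of the 14578 genes tested. The settings within JH139 and JH140 were chosen after seeing the data, have 1 uninjured library each and say nothing on stability. Replicate numbers did not pair the samples (correlations of same-numbered deviations from -0.11 to 0.11). The cause was not tested in any of these.

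Signs turned only for log2 fold changes that passed no test. With library size alone these were Id3 (0.0794), Bmpr2 (0.00497) and Smad6 (0.00464) between uninjured genotypes, Smad1 (0.00929) between genotypes at 3 DPI, and Bmpr1a (-0.15) and Bmpr2 (-0.0662) in the interaction. Without a filter they were Bmp6 (-0.0396) and Bmpr1a (-0.0277) uninjured, Bmpr1a (-0.0719) at 3 DPI, and Bmpr1a (-0.0832) and Bmpr2 (-0.0423) in the interaction. With the rescaled table Bmp6 uninjured was -0.00471. With all 16 libraries in 1 fit, Bmp6 (-0.0922) and Bmpr1a (-0.0716) uninjured and Bmpr1a (-0.0270) at 3 DPI turned. With limma Bmpr1a (-0.0113) and Smad1 (0.14) at 3 DPI turned. With the replicate block the values were -0.27 for Bmp4 and -0.0083 for Bmpr1a at 3 DPI, -0.22 for Smad1 in injury of the labelled cKO libraries and -0.00906 for Bmpr1a in the interaction, where Bmpr1a was -0.00447 with DESeq2 and -0.0083 with median-of-ratios factors. Within JH133, Bmpr1a (-0.0482), Bmpr2 (0.13) and Smad1 (0.88) at 3 DPI turned, and within JH139, Smad1 (-0.99) and Smad6 (-0.26) for injury in the labelled cKO libraries.

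Without single libraries the uninjured genotype values ranged from -0.0876 to 0.26 for Bmp6 and -0.16 to 0.22 for Bmpr1a. At 3 DPI they ranged from -0.10 to 0.31 for Id2, -0.58 to 0.53 for Bmp4, -0.19 to 0.14 for Bmpr1a and -0.34 to 0.32 for Smad1. For injury in the labelled cKO libraries Smad1 ranged from -0.25 to 0.58. In the interaction the ranges were -0.31 to 0.13 for Id3, -0.14 to 0.25 for Bmpr1a and -0.0847 to 0.20 for Bmpr2. Depth limits Id2, with 7 to 42 counts per uninjured library, and Id1, with 1 to 48 counts per 3 DPI library.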
